A study of Homo sapiens with 16 samples.

Results

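The matrix metalloproteinases (MMP1, MMP2, MMP3, MMP7, MMP9, MMP10 and MMP14) and their inhibitors TIMP1, TIMP2 and TIMP3 were followed across 8 established lung cancer cell lines grown on Matrigel (3D) and on tissue culture plastic (2D). The members were all probe sets annotated to 1 of these 10 genes and to no other gene, which gave 20 of the 54675 probe sets on the Affymetrix U133 Plus 2.0 array. The lines were H661, H460, H23, H1703, H358, A549, A427 and H1437, all untreated, and each contributed 1 array per culture, 16 arrays in all. In 3D, cells sat on a thin coat of Matrigel, a gel of basement membrane proteins, under medium with 2% Matrigel. In 2D, they grew on plastic at a similar density and in similar medium. No culture was repeated within a line, so the 8 lines were the replicates of the culture comparison, and the pair of arrays of a line, which differ in culture, were the replicates of the comparison between lines.

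Matrix metalloproteinases are zinc-dependent endopeptidases that are made as inactive precursors and cut proteins of the extracellular matrix and of the cell surface. TIMPs bind the active site of the mature enzymes and block it. In lung tumours these enzymes are known as products of both the cancer cells and the surrounding stroma; the cultures here held established tumour lines alone. MMP1 is a collagenase of fibrillar collagen, MMP3 and MMP10 are the stromelysins, MMP7 is the small epithelial matrilysin, MMP2 and MMP9 are the gelatinases, and MMP14 is anchored in the plasma membrane, where it activates the MMP2 precursor in a complex with TIMP2.

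All values are log2 ratios of a probe set's signal to a reference of its own, as deposited. Levels can therefore be set against each other between lines for 1 probe set, but not between probe sets or genes. For 10 member probe sets the reference was the median of the 16 arrays. The other 10 had a median under their reference, as did 36.5% of all probe sets: 1 each of MMP3 and MMP7, 2 of the 3 of MMP2, 2 of the 4 of MMP14 and all 4 of TIMP3. These dimmer probe sets were outside the primary fit of 34727 probe sets, and their tests come from a fit over all 54675. Several of them were high in 1 or 2 lines. A lower bulk value cannot tell fewer expressing cells from less RNA per cell.

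The 18S ribosomal RNA controls (3 probe sets) were lower in 3D in 8 of 8 lines, with a mean log2 difference of -1.15 and differences between -3.45 in H23 and -0.08 in H1437. All 9 epithelial and lung markers had a probe set with its median at its reference, as did 6 of 6 fibroblast, 4 of 6 leukocyte and 2 of 5 endothelial markers. Of all probe sets 63.5% had their median at their reference, and a gene needs only 1 such probe set. These counts therefore do not show which cell types were present. No marker probe set in the primary fit passed the test between cultures, beside 7.10% of all probe sets in it. CD163, TYROBP, CDH5, KDR and VWF were under their reference on every probe set.

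Promoter windows of 250 bases before the RefSeq transcription start (GRCh38.p14) were at hand for 5 members, MMP7, MMP10, MMP14, TIMP1 and TIMP3. The last 120 bases are shown for MMP7 (chr11:102530748-102530867, minus strand), MMP10 (chr11:102780629-102780748, minus strand) and TIMP1 (chrX:47582316-47582435, plus strand). MMP7 and MMP10 hold a match to the AP-1 letters TGANTCA at the same distance from the start. The windows of TIMP1, MMP14 and TIMP3 hold no match to these exact letters, so this does not part proteases from inhibitors. The TIMP1 stretch reads tgagtaa ahead of AGGAAG, which is close to these letters but was not counted by the search. Capitals mark matches to the AP-1 motif TGANTCA, which reads the same on both strands, and to the PEA3 or ETS motif AGGAAG. Sequences run 5′ to 3′ and end at the base before the start.
MMP7: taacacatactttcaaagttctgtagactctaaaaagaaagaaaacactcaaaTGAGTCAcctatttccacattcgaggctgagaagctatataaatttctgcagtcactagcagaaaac
MMP10: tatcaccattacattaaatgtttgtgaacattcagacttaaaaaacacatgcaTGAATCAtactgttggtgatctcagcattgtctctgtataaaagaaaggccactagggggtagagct
TIMP1: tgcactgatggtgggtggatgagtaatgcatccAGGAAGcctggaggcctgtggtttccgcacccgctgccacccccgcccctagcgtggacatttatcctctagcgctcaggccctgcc

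AP-1 factors are dimers of FOS and JUN proteins and are known regulators of several MMP genes. The AP-1 match lay at -67 to -61 in MMP7 (TGAGTCA) and at -67 to -61 in MMP10 (TGAATCA), counted from the start, and TATAAA followed at -30 in MMP7 and -31 in MMP10. Of all 35116 promoter windows of this length, 6.57% held the AP-1 motif and 10.7% held TATAAA. In TIMP1, AGGAAG stood at -87 and the GC box letters GGGCGG on the minus strand at -135 and -45. MMP7 held AGGAAG on the minus strand at -169 and -145, outside the stretch shown, and the TCF or LEF letters CTTTGA at -194 and, on the minus strand, -108. MMP14 had 1 GC box, at -66, and TIMP3 had 5. Over all windows, AGGAAG was found in 28.7%, GGGCGG in 42.6% and CTTTGA in 11.2%; the NF-kB letters GGGNNTTCC, found in 5.78% of all windows, occurred in none of the 5. All motifs were searched on both strands and did not overlap one another in these 5 windows; a match is a match of letters, not a measured binding site.

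**Figure D1:**
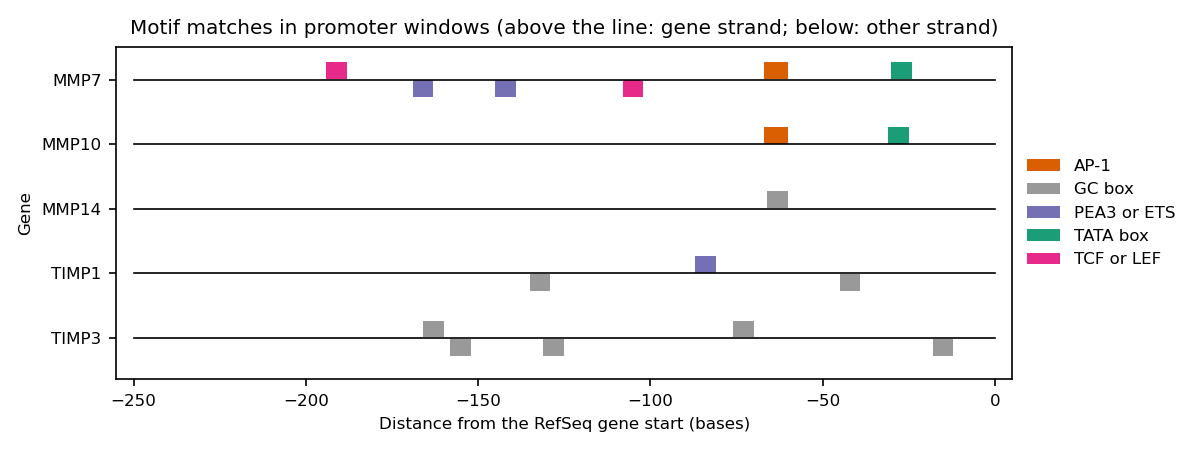
Positions of motif matches in the 250 bases before the transcription start of 5 member genes, with distance from the start in bases on the horizontal axis. MMP7 and MMP10 share an AP-1 match at -67 and a TATA box within 1 base of each other, and MMP14, TIMP1 and TIMP3 hold GC boxes.

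The level differed between lines for most members. In the primary fit, 7 of 10 member probe sets passed limma's F test of the 8 lines after Benjamini-Hochberg adjustment: MMP1, MMP9, MMP10, TIMP1 and all 3 of TIMP2. Of all probe sets in that fit 76.1% passed, so this count lies near the background. Over all probe sets, 14 of 20 passed, against 56.2% of the array. When each line was set against the mean of the other 7, 26 of 80 pairs of member probe set and line passed, against 37.4% of all pairs, and 46 of 160 pairs did in the fit over all probe sets, against 26.6%.  MMP1 had the widest spread of the members, as only 0.620% of all probe sets had line means over as wide a range. Other members were narrow, with 84.1% of probe sets as wide as MMP3 and 95.9% as wide as MMP2 on 1566677_at. These shares include the dimmer probe sets, whose median range was 0.31, beside 1.60 for those with a median at their reference.

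**Figure D2:**
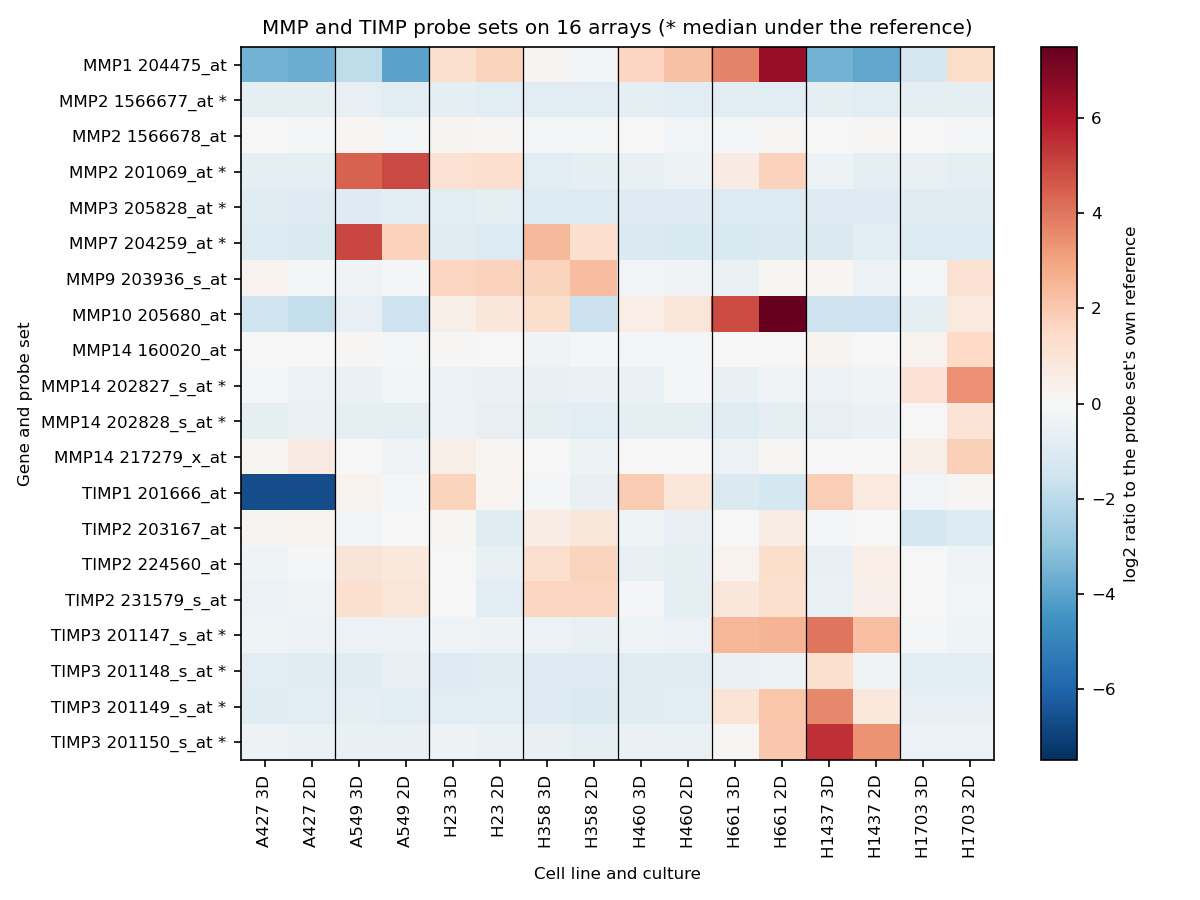
Level of each of the 20 member probe sets on each array, as log2 ratio to the probe set's own reference, with 3D left of 2D within each line. High values sit in 1 or 2 lines for most genes, such as H661 for MMP1 and MMP10, A549 for MMP2 and MMP7, H1703 for MMP14 and H1437 for TIMP3.

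MMP1, the collagenase, was highest in H661, at 3.75 in 3D and 6.52 in 2D. H460 had 1.62 in 3D and 2.20 in 2D, H23 had 1.23 and 1.69, H1703 had -1.26 and 1.38, and H358 had 0.19 and -0.22, each with 3D first. The lowest were A549, at -1.91 in 3D and -4.02 in 2D, A427, at -3.57 and -3.74, and H1437, at -3.55 and -3.88. The line means thus spanned 8.85 log2 units, or 462-fold (F test, limma adjusted p = 9.42e-05). H661 stood 6.12 log2 units above the mean of the other 7 lines, or 69.7-fold (limma adjusted p = 0.000101), and H460 stood 2.44 above it (limma adjusted p = 0.0217). A427, A549 and H1437 lay below it, with contrasts of -3.92, -3.13 and -3.99 and limma adjusted p of 0.00167, 0.00606 and 0.00149. In neither culture did any other line reach H661, and the neighbours H460 and H23 overlapped. With H661 left out, H23 also stood above the rest, by 2.86 (limma adjusted p = 0.00604), and the H460 contrast did not pass without A427 or without H1437 (limma adjusted p = 0.0787 and 0.0783).

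The stromelysin MMP10 followed an order close to that of MMP1. It was at 4.87 in 3D and 7.51 in 2D in H661, and no other array exceeded the 1.32 of H358 in 3D. H460 gave 0.52 in 3D and 0.88 in 2D, H23 gave 0.44 and 0.85, and H1703 gave -0.76 and 0.74. H358 had -1.62 in 2D, A549 had -0.64 in 3D and -1.55 in 2D, H1437 had -1.55 in both, and A427 had -1.49 in 3D and -1.78 in 2D. H661 exceeded the mean of the other lines by 6.63 log2 units, or 98.8-fold (limma adjusted p = 6.85e-05; F test of the lines, limma adjusted p = 0.000499). Without H661 the F test did not pass (limma adjusted p = 0.0789). A427 and H1437 lay below the mean, with contrasts of -2.31 and -2.21 (limma adjusted p = 0.0298 and 0.0360), and neither passed without H661 (limma adjusted p = 0.102 and 0.128). Across the 16 arrays MMP10 and MMP1 had a Pearson r of 0.895, and of 0.908 over the 8 line means, given as descriptions; H661 carries the highest values of both. The other stromelysin, MMP3, was flat, between -1.02 and -0.87 in 3D and between -1.05 and -0.72 in 2D. Its line test did not pass (limma adjusted p = 0.111, and 0.0496 without A549), and its single line contrast that passed, H23, was 0.16 in size (limma adjusted p = 0.0384) and did not pass with H358, H460, H661 or H1437 left out (limma adjusted p between 0.0545 and 0.0755).

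MMP7, the matrilysin, stood out in A549 and H358. Its level was 5.03 in 3D and 1.73 in 2D in A549, and 2.42 in 3D and 1.26 in 2D in H358. In the other 6 lines it stayed between -1.17 and -0.81 on all 12 arrays. A549 exceeded the mean of the other lines by 4.01, or 16.1-fold (limma adjusted p = 0.000703), and H358 by 2.25, or 4.75-fold (limma adjusted p = 0.0157). A549 was above H358 in both cultures, but the 2 lines overlapped, as A549 in 2D (1.73) lay under H358 in 3D (2.42).

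The gelatinases were high in different lines. MMP2 on probe set 201069_at reached 4.45 in 3D and 4.92 in 2D in A549. H23 followed with 1.17 in 3D and 1.27 in 2D and H661 with 0.63 and 1.74, while the other 5 lines lay between -0.77 and -0.37. A549 stood 4.77 log2 units above the mean of the rest, or 27.3-fold (limma adjusted p = 1.19e-06). With A549 left out, H23 was 1.52 and H661 1.48 above the mean of the others (limma adjusted p = 0.00150 and 0.00172). The other MMP2 probe sets, 1566677_at and 1566678_at, did not show this pattern: their line means spanned only 0.13 and 0.23.

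MMP9 was highest in H358, at 1.68 in 3D and 2.33 in 2D, and in H23, at 1.61 in 3D and 1.73 in 2D. H1703 had -0.11 in 3D and 1.11 in 2D, and the other 5 lines were between -0.47 and 0.25. H358 exceeded the other lines by 1.79, or 3.47-fold (limma adjusted p = 0.000601), and H23 by 1.40, or 2.65-fold (limma adjusted p = 0.00268). H358 and H23 overlapped each other.

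MMP14, the membrane-bound activator of MMP2, was highest in H1703, above all in 2D. On probe set 202827_s_at H1703 had 1.08 in 3D and 3.44 in 2D, whereas the other 14 arrays lay between -0.55 and -0.08. The corresponding H1703 values were 0.00 in 3D and 1.02 in 2D on 202828_s_at, 0.24 and 1.49 on 160020_at, and 0.42 and 1.78 on 217279_x_at. H1703 exceeded the mean of the other lines on all 4 probe sets, by 2.64, 1.17, 0.89 and 1.08, with limma adjusted p of 0.00106, 0.00141, 0.0121 and 0.0105. The F test over the lines passed on the first pair (limma adjusted p = 0.0133 and 0.0155) and did not on the second (0.144 and 0.0756). Without H1703 neither of the first pair passed (limma adjusted p = 0.799 and 0.253). On 217279_x_at the H1703 array in 3D lay within the range of the other lines, which reached 0.65. A549, the line with the highest MMP2, had MMP14 line means between -0.69 and -0.04 on the 4 probe sets.

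Among the inhibitors, TIMP1, the secreted inhibitor of most soluble MMPs, was at the lowest value of the file, -6.64, in A427 in both cultures. That value is a floor, a ratio of 0.01 that 297 values of the whole table share, so it bounds the level and says nothing of a difference between cultures. H460 had 1.91 in 3D and 0.91 in 2D, H1437 had 1.86 and 0.71, and H23 had 1.69 and 0.17. A549 had 0.25 in 3D and -0.07 in 2D, H1703 had -0.21 and 0.07, H358 had -0.17 and -0.54, and H661 had -1.08 and -1.34. A427 lay at least 123-fold under the mean of the other 7 lines (limma adjusted p = 1.69e-07). Since A427 pulls down the mean that the other lines are set against, those contrasts were taken without it: H460 and H1437 then stood above the rest, by 1.30 and 1.15, and H661 stood below, with -1.76 (limma adjusted p = 0.00729, 0.0129 and 0.00147), while H23, at 0.73, did not pass (limma adjusted p = 0.0792).

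TIMP2, which takes part in MMP2 activation at low levels and inhibits it at high ones, was highest in H358 on all 3 probe sets. H358 had 0.57 in 3D and 0.85 in 2D on 203167_at, 1.18 and 1.65 on 224560_at, and 1.64 and 1.60 on 231579_s_at. Its excess over the other lines was 0.95, 1.36 and 1.52 (limma adjusted p = 0.00754, 0.00433 and 0.00112). On 231579_s_at, A549 (1.21 in 3D, 0.91 in 2D) and H661 (0.86 in 3D, 1.18 in 2D) also exceeded the mean of the others, by 0.88 and 0.83 (limma adjusted p = 0.0223 and 0.0284). Both were lost without A427 (limma adjusted p = 0.0507 and 0.0631), and that of H661 also without H460 or H1703 (0.0518 and 0.0532). H460 lay below the mean of the others on 224560_at and 231579_s_at, with contrasts of -0.995 and -0.83 (limma adjusted p = 0.0219 and 0.0292). On 231579_s_at H23 and A427 also lay below it, with -0.83 and -0.73 (limma adjusted p = 0.0291 and 0.0486). The A427 contrast did not pass in the fit over all probe sets (limma adjusted p = 0.0760). H1703 was the lowest line on 203167_at, at -1.31 in 3D and -1.03 in 2D, a contrast of -1.20 (limma adjusted p = 0.00204) that the other TIMP2 probe sets did not share at that size. Without H1703 the F test of 203167_at did not pass (limma adjusted p = 0.0596). Over the 16 arrays, 224560_at and 231579_s_at had a Pearson r of 0.952 and 203167_at had 0.664 and 0.624 with them.

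TIMP3, the inhibitor that stays bound to the matrix and also blocks ADAM proteases, was high in H1437 and, on some of its probe sets, in H661. In H1437 it had 4.01 in 3D and 2.28 in 2D on 201147_s_at and 5.46 and 3.37 on 201150_s_at. The other H1437 values were 3.58 in 3D and 0.77 in 2D on 201149_s_at and 1.21 and -0.28 on 201148_s_at. H661 had 2.48 in 3D and 2.55 in 2D on 201147_s_at, 0.08 and 2.04 on 201150_s_at, and 1.03 and 2.11 on 201149_s_at. On these 3 probe sets the other 6 lines lay between -1.07 and -0.10. H1437 exceeded the mean of the other lines by 3.11 on 201147_s_at and by 4.70 on 201150_s_at, or 26.1-fold (limma adjusted p = 6.69e-05 and 0.000166), and H661 exceeded it by 2.39 on 201147_s_at and 1.97 on 201149_s_at (limma adjusted p = 0.000316 and 0.0210). H661 did not pass on 201150_s_at, at 0.87 (limma adjusted p = 0.264). The F test of the lines passed on 3 of the 4 probe sets and not on 201148_s_at (limma adjusted p = 0.0549, but 0.0365 after quantile normalisation and 0.00728 without H1437), and without H1437 it did not pass on 201150_s_at (limma adjusted p = 0.106). Pairs of TIMP3 probe sets had a Pearson r between 0.868 and 0.972 over the 16 arrays, and those of MMP14 between 0.844 and 0.958.

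The comparison of cultures asked whether growth on Matrigel moved these genes in the same way across the lines. None of the 10 member probe sets of the primary fit passed (limma, Benjamini-Hochberg adjusted p), against 7.10% of all probe sets in it, and none of 20 passed over all probe sets, against 2.00%. At an unadjusted p under 0.05 there was 1 of 10, TIMP1, and 2 of 20, TIMP1 and MMP2 on 1566677_at, whose difference was 0.07 ± 0.05 (SD, n = 8 lines), beside 26.1% of all probe sets in the primary fit and 21.3% of the array. An exact sign-flip permutation test over the 8 lines, two-sided, cannot give a p under 0.0078 and called 0 of 34727 probe sets after adjustment (8551 at an unadjusted p under 0.05), so it says nothing about the members. The median difference of the 10 member probe sets was -0.10, beside -0.01 over all probe sets tested.

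TIMP1 came closest, at -0.30 ± 2.79 in 3D and -0.84 ± 2.45 in 2D (SD, n = 8 lines), a paired difference of 0.54 ± 0.62. It was higher in 3D in 6 lines, lower in H1703 (-0.28), and at the floor in both cultures in A427 (unadjusted p = 0.0175, limma adjusted p = 0.110). The largest differences were 1.52 in H23, 1.15 in H1437 and 1.0 in H460. Without A427 the mean difference was 0.62 (limma adjusted p = 0.0956). The 18S controls differed by -3.45 in H23, -0.08 in H1437 and -1.61 in H460, and the TIMP1 difference was 0.16 once 18S level entered the fit as a covariate (limma adjusted p = 0.869).

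For the other members the mean difference was smaller than its spread over the lines, apart from the difference of 0.07 on 1566677_at. MMP1 differed by -0.43 ± 1.62, MMP10 by -0.10 ± 1.65, MMP7 by 0.54 ± 1.19 and MMP9 by -0.20 ± 0.58 (SD, n = 8 lines each; limma adjusted p = 0.603, 0.919, 0.397 and 0.517). MMP2 on 201069_at differed by -0.18 ± 0.44, MMP14 on 202827_s_at by -0.39 ± 0.84 and MMP3 by -0.03 ± 0.09. Single lines weighed on these means in both directions. MMP1 differed by -0.10 without H661 and -0.12 without H1703, but by -0.79 without A549. MMP7 differed by 0.14 without A549, MMP9 by -0.06 without H1703, MMP2 by -0.05 without H661 and MMP14 by -0.11 without H1703. Other omissions moved these means further from 0: without H1437 MMP7 differed by 0.65, MMP9 by -0.31 and MMP2 by -0.26, and without A427 MMP14 by -0.50. The 3 TIMP2 probe sets differed by between -0.21 and 0.09 and the 4 of TIMP3 by between 0.07 and 0.29. MMP1 was higher in 3D in 4 lines and lower in 4. These tests do not show that culture left a member unchanged in any single line.

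**Figure D3:**
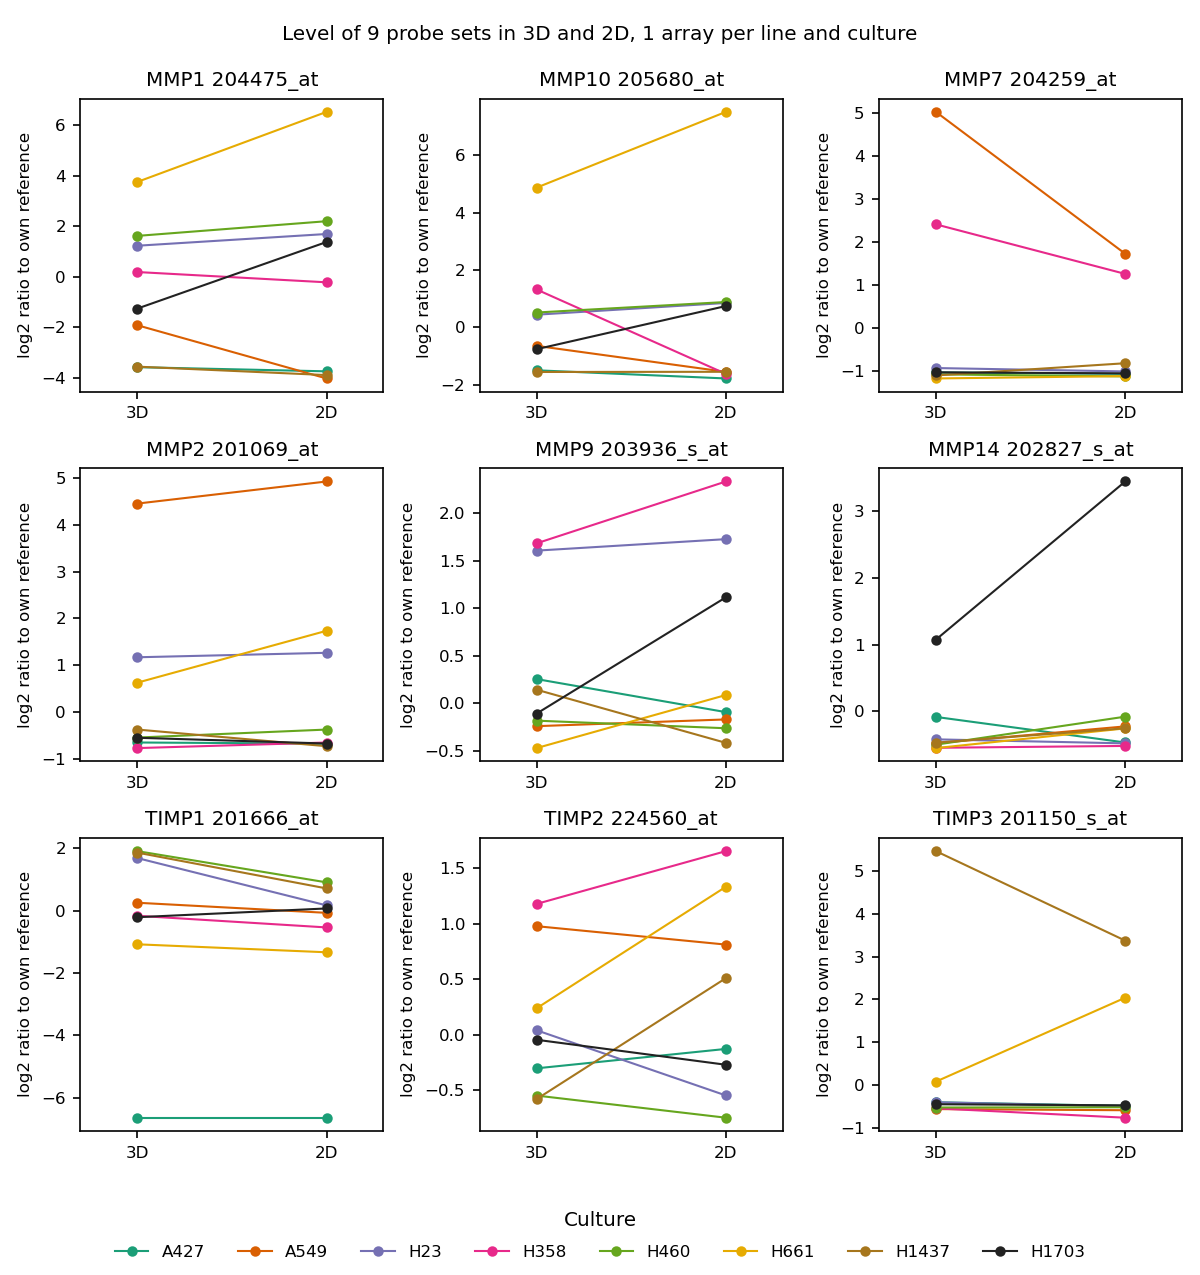
Level on the log2 scale, as ratio to the probe set's own reference, of selected member probe sets in 3D (left) and 2D (right), with a line joining the 2 arrays of each cell line. Slopes run both ways for MMP1 and MMP10, and TIMP1 is higher in 3D in 6 of 8 lines with A427 at the floor.

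Within single lines the differences were large in places and opposite in sign. Each is 1 array against 1 array, with no replicate, so it is described by its size and by how many of all probe sets differed at least 2-fold in that line. In A549, MMP7 was 9.84-fold higher in 3D and MMP1 4.30-fold higher. These were 2 of 20 member probe sets, beside 5.10% of the array, and 0.294% of all probe sets differed as much as MMP7. In H358, MMP10 was 7.67-fold higher in 3D, a size that 0.185% of probe sets reached, and MMP7 was higher by 1.15 log2 units, 2 of 20 beside 6.83%.

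In H661 the direction was the opposite for the same proteases. MMP1 was 6.82-fold lower in 3D and MMP10 6.23-fold lower, although in 3D H661 was still the highest line for both. MMP2, 2 TIMP3 probe sets and 1 of TIMP2 were also at least 2-fold lower, with differences of -1.11, -1.96, -1.07 and -1.09. This made 6 of 20, from 5 genes and all lower, beside 7.45% of the array.

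H1703 had 7 of 20 member probe sets at least 2-fold lower in 3D and none higher, beside 2.57% of the array. MMP1 was 6.20-fold lower, and 19 probe sets of the whole array differed as much. All 4 MMP14 probe sets were lower, with differences of -1.25, -2.37, -1.02 and -1.36, as were MMP9 and MMP10, with -1.22 and -1.50. The 7 belong to 4 genes, and probe sets of 1 gene are not separate measurements of it.

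H1437 moved mainly in its inhibitors: all 4 TIMP3 probe sets were higher in 3D, by 1.73, 1.49, 2.81 and 2.09, as was TIMP1, by 1.15, while TIMP2 on 224560_at was lower, with a difference of -1.09. These were 6 of 20, from 3 genes, beside 4.0% of the array. The 4 probe sets of TIMP3 are not separate measurements of it. In H23 and in H460 only TIMP1 reached 2-fold, higher in 3D, beside 5.66% in H23 and 4.12% in H460. A427 had no member at 2-fold, beside 1.55%, its TIMP1 being at the floor. Differences between lines in these culture differences were not tested, as no line had a second pair of arrays.

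**Figure D4:**
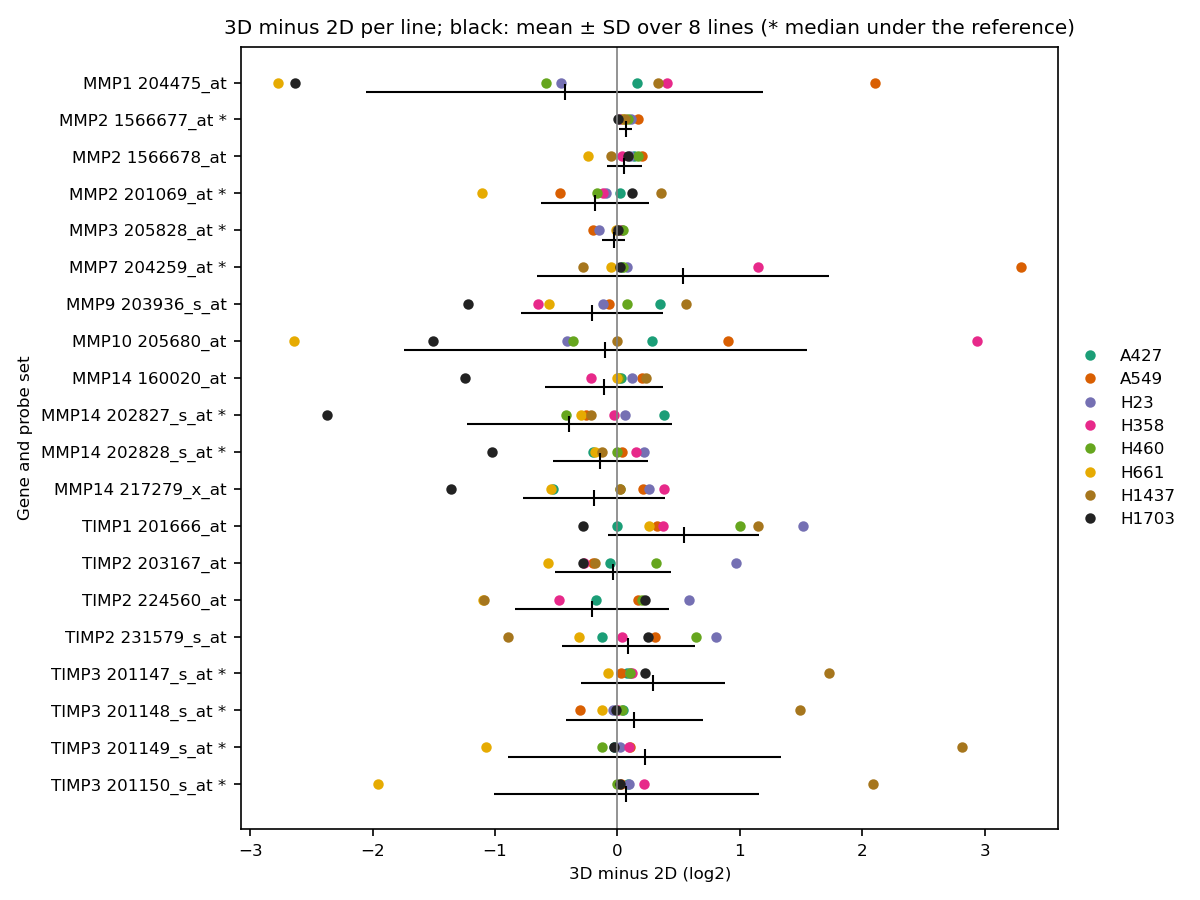
Difference 3D minus 2D on the log2 scale for each member probe set, with 1 point per cell line. MMP1 and MMP10 have points beyond 2 log2 units on both sides of 0, A549 lies at 3.30 for MMP7, and H1703 is the lowest point of the 4 MMP14 probe sets.

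Across the lines, MMP1 and MMP10 also moved in like directions between cultures, with a Pearson r of 0.774 over their 8 differences, a description in which H661 and H1703 are the low points of both. They are neighbours in the MMP cluster on chromosome 11, where RefSeq gives the order of protein-coding genes as MMP7, MMP20, MMP27, MMP8, MMP10, MMP1, MMP3, MMP12 and MMP13. Their neighbour MMP3 was flat, as were MMP12, MMP20 and MMP27, whose 16 arrays spanned 0.17, 0.22 and 0.24. The probe sets of these genes lay under their reference on every array, with highest values of -1.07, -0.78 and -0.94 for MMP12, MMP20 and MMP27. A narrow span at such levels does not show that these genes were evenly expressed. MMP8, the neighbour of MMP10 on the other side, spanned 1.10 on 207329_at, where H358 had -1.06 in 3D and 0.04 in 2D and the other 14 arrays lay between -1.04 and -0.73, and 0.44 on 231688_at. The collagenase MMP13, at the end of the cluster, was high in 1 line: H358 had 7.11 in 3D and 4.62 in 2D, and all other arrays were between -0.96 and -0.82. H358 exceeded the other lines by 6.77 for MMP13 (limma adjusted p = 4.95e-06). The collagenases MMP1 and MMP13 thus had their highest level in H661 and in H358.

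Genes around the members in the pathway were read from lists. Of the other MMPs and TIMP4, 12 of 32 probe sets, from 7 genes, were in the primary fit. None of the 12 passed the test between cultures (median 0.06), beside 7.10% of all probe sets in that fit. The count that passed was 0 of 17 for ADAM and ADAMTS proteases (median 0.04) and 0 of 35 for matrix and cell-surface substrates (median 0.09). With so few probe sets per list, a count of 0 does not show that these genes were unchanged. Of activators, inhibitors and docking partners, 1 of 44 rose in 3D (median 0.07). This was RECK, a membrane-anchored inhibitor of MMPs, on probe set 1558116_x_at, by 0.40 ± 0.21, in 8 of 8 lines (limma adjusted p = 0.0297), while its other 4 probe sets differed by between -0.23 and 0.32.

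Of the transcription factors known to bind MMP and TIMP promoters, 3 of 55 probe sets rose in 3D and none fell, again beside 7.10% of all. FOS, a subunit of AP-1, rose by 1.15 ± 0.75, higher in 7 of 8 lines (limma adjusted p = 0.0233). The ETS factor ETV1 rose by 0.65 ± 0.53 on 206501_x_at, in 8 of 8 lines (limma adjusted p = 0.0451), and its other probe sets differed by between 0.40 and 0.58. For CTNNB1, which encodes beta-catenin, 223679_at rose by 0.50 ± 0.18 in 8 of 8 lines (limma adjusted p = 0.0169), but its other probe sets differed by -0.72 and -0.20, so the gene has no single direction. Whether any of these factors acts on a member was not tested, and MMP1, MMP2, MMP3, MMP9 and TIMP2 had no promoter window to search.

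The genes most like each member over the 16 arrays, by Pearson r among probe sets with a median at their reference, are given as a description, with no test; the arrays of a line are in pairs, so few lines decide each r. MMP1 had MRPS31 (0.907), THAP3 (0.900) and MMP10 (0.895) as its closest, and MMP10 had THAP3 (0.926), ZFYVE26 (0.919) and SLC6A15 (0.917). MMP7 was followed by SYCE1L (0.971), HPGD (0.939) and BMP1 (0.928), and MMP9 by MEX3A (0.924), FTCD (0.905) and KDM4D (0.904). TIMP1 had ALKBH3 (0.966), ZZZ3 (0.962) and ENAH (0.942). TIMP2 on 224560_at had FRMD5 (0.868), EFNB2 and JAG1 (0.841 each). TIMP3 on 201150_s_at had SERHL2 (0.977), C1orf56 (0.976) and TFF3 (0.932), and MMP14 on 217279_x_at had HLA-DPA2 (0.936), PLG (0.930) and SEPTIN4 (0.915). The flat MMP3 had APOA1 (0.957), TMCC1 (0.929) and HTR7 (0.909), and MMP2 on 1566678_at had RFX2 (0.814), ADHFE1 and CIROZ (0.792 each). MMP3 lay under its reference on every array, and the line means of these 2 probe sets spanned only 0.24 and 0.23. Their r values therefore rest on small differences and do not show shared expression. Of probe sets chosen here after their values were seen, MMP2 on 201069_at had the receptor kinase AXL (0.959), CCBE1 (0.915) and ACER3 (0.908), and MMP14 on 202827_s_at had HRH3 (0.966), CPSF1 (0.948) and STK10 (0.941).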

How the data were processed

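RNA of 8 lung cancer lines in 3D and 2D was hybridised to 16 arrays, 200 ng of total RNA each, per the labels' protocols. The deposited values are log2 ratios of each probe set to its own reference. This was read from the values: 63.5% of probe sets have a median of 16 arrays at 0, the rest lie under it, and a ratio of 0.01 is the lowest. Neither the array software nor the normalisation is given in the sources used here.

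Probe sets were named from the platform annotation given with the values: 41097 had 1 gene symbol, 1801 several and 11777 none. limma 3.58.1 (R 4.3.3) was fitted with culture and cell line, the line named in the labels being the block, with a variance trend and Benjamini-Hochberg adjustment over all probe sets fitted. Line contrasts were adjusted over all probe sets and 8 contrasts together, and an adjusted p under 0.05 was called. The script was tested on simulated data. The primary fit left out probe sets with a median under their reference; since this removed 10 members, their tests come from the fit without that filter. Alternatives were other normalisations, floors, variance settings, probe set summaries, an 18S covariate, no line block and leaving out each line.

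All probe sets of the 10 genes are named; of related lists, every gene called between cultures; and for each member the 3 genes with the highest Pearson r. The members and lists were chosen with earlier results of these data known. Promoter sequences are RefSeq's (GRCh38.p14). A planned search of protein motifs was not run here. The number of arrays limits the precision, and where nothing says that cultures were separate, p-values measure the spread between these samples.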

Additional observations from a re-analysis of the deposited data

Results flagged for a closer look

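For each member probe set, 3 groups of 8 values, the lines in 3D, the lines in 2D and the differences 3D minus 2D, were searched for a highest or lowest line far from the others by Dixon's criterion, and 21 of 60 groups held one. The nominal rate of the criterion is about 1 in 20, and several of these come from probe sets of the same gene. Many lie on probe sets with a median under their reference, where most lines gave low values. The search was run on the members only, so the share of all probe sets that it would flag is not known. The count therefore does not set these genes apart from the rest of the array.

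A549 stood far above the other lines for MMP2 on 201069_at, at 4.45 in 3D and 4.92 in 2D, and for the culture difference of MMP7, at 3.30. H661 did so for MMP10, at 4.87 in 3D and 7.51 in 2D.

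H1703 stood apart for MMP14: at 1.49 in 2D and -1.25 for the difference on 160020_at, at 1.08 in 3D, 3.44 in 2D and -2.37 for the difference on 202827_s_at, and at 1.02 in 2D and -1.02 for the difference on 202828_s_at. It was also far below the others for TIMP2 on 203167_at in 3D, at -1.31.

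A427 was far below the others for TIMP1, at the floor of -6.64 in 3D and -6.64 in 2D. H1437 stood above the others for TIMP3, with a difference of 1.73 on 201147_s_at, a 3D level of 1.21 and a difference of 1.49 on 201148_s_at, a 3D level of 3.58 and a difference of 2.81 on 201149_s_at, and a 3D level of 5.46 on 201150_s_at.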

How the results depend on the processing

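No member probe set passed the test between cultures under any alternative run, that without the replicate block included (0 of 10, limma). Of 343 recomputed culture differences of single probe sets, 330 kept their direction and none gained a call. Many of the 330 could not turn. Lifting the filter, the variance settings, dropping the line block and the sign-flip test leave the mean difference of a probe set as it was. The count of 330 is therefore no measure of stability. Fitting all probe sets, which by construction adds the 10 dimmer member probe sets, raised the number called between lines to 14 of 20 and the pairs of member and line called to 46 of 160. With the 18S level as a covariate the culture difference turned to 0.018 for MMP3, 0.26 for MMP10 and -0.36 for TIMP2 on 231579_s_at. None of these passed the test; the cause was not tested. Leaving out 1 line at a time gave ranges that crossed 0 for MMP10 (-0.53 to 0.26), MMP14 on 160020_at (-0.16 to 0.053), TIMP2 on 203167_at (-0.18 to 0.042) and on 231579_s_at (-0.013 to 0.23), and TIMP3 on 201148_s_at (-0.056 to 0.20), 201149_s_at (-0.15 to 0.41) and 201150_s_at (-0.22 to 0.36). The sign turned without H661 or H1703 for MMP10, without H1703 for MMP14 and without H1437 for TIMP3. Over the whole array, 2467 probe sets passed between cultures with the line as the block, 8 without it, 2 with the 18S covariate and 0 by the exact sign-flip permutation test, so the counts of 0 members under the last 3 settings say nothing about stability.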

Other observations

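Other proteases and inhibitors of the family, picked here after their values were seen, also stood apart in single lines. TIMP4 was at 4.75 in 3D and 0.44 in 2D in A549 and at 3.29 in 3D and 3.16 in 2D in H460, and H460 exceeded the mean of the other 7 lines by 3.58 (limma over all probe sets, adjusted p = 0.00513). The TIMP4 difference of A549 was 4.31 on the log2 scale, 1 array against 1. MMP28 on 239272_at was at 3.77 in 3D and 1.78 in 2D in A549 and at 1.84 in 3D and 2.73 in 2D in A427, with A549 above the others by 2.60 (limma adjusted p = 0.00175). No other MMP28 probe set passed the F test of the lines. MMP24 on 213171_s_at was at 0.99 in 3D and 2.24 in 2D in A549, above the others by 1.86 (limma adjusted p = 0.000402), while its other probe set, 208387_s_at, did not pass for A549 (0.10, limma adjusted p = 0.474). Mean culture differences over the 8 lines were 0.55 for TIMP4 and 0.28 for MMP28 on 239272_at, and neither passed (limma adjusted p = 0.490 and 0.560).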
